A study of Mus musculus with 16 samples.

Results

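The neurotrophin genes described here are 7 of the 24421 gene names in the expression tables of the dentate gyrus, the input region of the hippocampus, and were chosen by gene name: the ligands Bdnf and Ntf3, the receptors Ntrk2, Ntrk3, Ngfr and Sort1, and the secreted neuropeptide precursor Vgf. All 7 were above 0 TPM (an expression level per unit of gene length) in all 16 libraries and all 7 passed the filter on low values. The mice were males of the C57BL/6 strain aged 1 year, either p16Ink4a wild type (p16 WT) or with a null p16Ink4a allele in all their cells (p16 KO), an allele that leaves p19Arf functional and that was moved from the FVB strain by repeated crossing. In each genotype, animals had a running wheel for 12 days (p16 WT RUN and p16 KO RUN) or stayed sedentary in standard cages (p16 WT CTL and p16 KO CTL). Each group has 4 libraries and each library pools the dentate gyri of 2 mice, so p-values measure the spread between pools. The replicates are numbered 1 to 4 in p16 WT CTL, 5 to 8 in p16 KO CTL, 9 to 12 in p16 WT RUN and 13 to 16 in p16 KO RUN.

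Neurotrophins are secreted growth factors that neurons make as proproteins, cleave and release, in part upon activity. Mature BDNF binds TrkB (Ntrk2) and NT-3 binds mainly TrkC (Ntrk3), tyrosine kinase receptors that signal through MAP kinases, PI3 kinase and Akt, and phospholipase C gamma. The uncleaved proforms bind the p75 receptor (Ngfr) together with sortilin (Sort1), which also sorts proneurotrophins into vesicles. In the hippocampus BDNF is known for its part in synaptic plasticity, and Bdnf and Vgf are known as genes induced by neuronal activity, in Bdnf from several alternative promoters.

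In the mm10 coordinates of the tables Bdnf lies at chr2:109674700-109727043 on the plus strand and Ntf3 at chr6:126101412-126166744 on the minus strand. Ntrk2 lies at chr13:58806569-59133970 (plus), Ntrk3 at chr7:78192114-78577838 (minus), Ngfr at chr11:95568821-95587698 (minus), Sort1 at chr3:108284064-108361519 (plus) and Vgf at chr5:137030295-137033351 (plus). RefSeq promoter windows (GRCm38.p6) were matched for 4 of the 7 genes, with 11 windows in all, 7 of them for Bdnf. Their 250 bases before the start were searched on both strands for the half-site of the cyclic AMP response element, CGTCA (or its reverse complement TGACG), the element bound by CREB, a factor of activity-induced transcription. It was found in 1 of the 11 windows, against 17.8% of 32851 windows of all genes. The 2 Bdnf sequences show the window that holds it, with the half-site in capitals and its first base 35 bases before the start, and the window before the first annotated start, which does not. Both are given 5′ to 3′ on the plus strand, and the tables give 1 value for the whole gene, so the share of each start cannot be read from them.
Bdnf chr2:109692186-109692435: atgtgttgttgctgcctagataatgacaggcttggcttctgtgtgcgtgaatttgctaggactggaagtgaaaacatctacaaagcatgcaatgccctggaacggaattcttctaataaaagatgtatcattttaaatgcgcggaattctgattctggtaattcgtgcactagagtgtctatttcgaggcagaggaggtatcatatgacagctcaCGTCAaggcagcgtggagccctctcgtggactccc
Bdnf chr2:109674450-109674699: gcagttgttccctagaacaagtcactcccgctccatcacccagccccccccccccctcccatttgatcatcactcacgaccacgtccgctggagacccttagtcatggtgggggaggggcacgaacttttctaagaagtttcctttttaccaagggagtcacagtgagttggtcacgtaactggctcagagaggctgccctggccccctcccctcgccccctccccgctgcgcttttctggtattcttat
The full element TGACGTCA was in none of the 11 windows and in 1.55% of all windows. A match in letters is a description, and binding was not measured.

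The libraries carried the markers of dentate granule neurons, with Prox1 at 58.1 to 187 TPM and C1ql2 at 199 to 610 TPM. Summed granule neuron markers were lowest in p16 KO CTL replicate 8, at 652 TPM, and p16 WT CTL replicate 2, at 814 TPM. In the other libraries they were at 960 to 1760 TPM. Summed choroid plexus markers reached 216 TPM in p16 KO CTL replicate 7, against 18.6 to 64.3 TPM elsewhere. Cdkn2a, the gene that encodes both p16 and p19Arf, was at 0 to 0.586 TPM in all 16 libraries and therefore checks no label. Relative coverage of the libraries ran from 0.619 to 2.03. A list of 8 RNAs retained in the nucleus, among them Malat1, summed to 977 TPM in p16 WT CTL replicate 2 and to 541 and 479 TPM in p16 KO CTL replicates 6 and 7, against 1830 to 2530 TPM in the other libraries. Summed CA1 pyramidal neuron markers reached 282 TPM in p16 KO CTL replicate 8 and 166 TPM in p16 WT RUN replicate 10, against 71.9 to 139 TPM elsewhere, and all 6 of these markers were among the genes tested. Calls of the 7 genes that change without the libraries low in nuclear RNA or high in CA1 markers are given with both values. Fits without the libraries low in nuclear RNA keep only replicates 5 and 8 of p16 KO CTL. Of these, replicate 8 is the one high in CA1 markers, so such fits are a weak check of p16 KO CTL.

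The 7 genes differed widely in level. By mean TPM over the 16 libraries the order was Sort1 at 332 ± 23.2 (SD), Ntrk2 at 233 ± 13.7, Vgf at 206 ± 60.4, Ntrk3 at 102 ± 21.4, Bdnf at 57.3 ± 11.5, Ntf3 at 28.0 ± 8.56 and Ngfr at 0.930 ± 0.323. Each gene was above the next in all 16 libraries, except that Ntrk2 was above Vgf in 12 of 16, so these neighbours overlapped. The tables also give a coverage for each gene, read here as a mean per base. This second measure per length put the genes in another order. Brought to the TPM scale of each library, TPM was 12.66 times the coverage level for Bdnf (12.58 to 12.72 over the libraries) and 16.49 times for Ntrk3 (15.73 to 16.95), but 1.83 times for Ntrk2, 1.15 times for Ntf3, 1.01 times for Sort1 and 1.00 times for Ngfr and Vgf. Among 12177 genes with a coverage over 5 in all libraries, 80.4% were within 2% of a ratio of 1 and 0.411% were at 10 or more. By coverage Bdnf stood at 4.53 and Ntrk3 at 6.20 in TPM units, below Ntf3 at 24.3, and Vgf at 206 stood above Ntrk2 at 127. Statements on which of these genes is more abundant thus depend on the measure, whereas the ratio was nearly the same in each library. Why the measures differ was not tested.

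**Figure D1:**
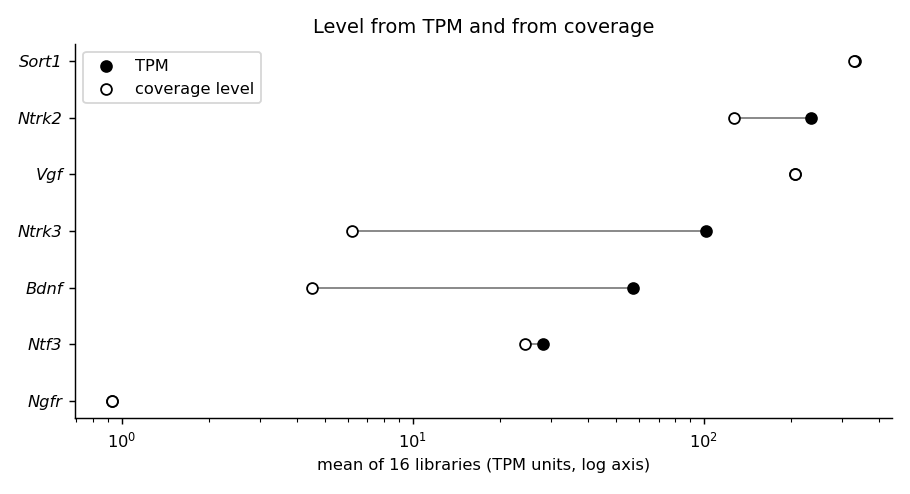
Mean level of each gene over the 16 libraries in TPM (filled) and from the coverage column brought to TPM units (open), on a log axis. Bdnf and Ntrk3 drop from 57.3 to 4.53 and from 102 to 6.20, while Sort1, Vgf and Ngfr keep their level.

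Running was compared with sedentary housing first. With genotype as a term over all 16 libraries, 4 of the 7 passed an unadjusted p under 0.05, the threshold of the study: Bdnf, Ntrk3 and Vgf were higher (3 of 7) and Ngfr was lower (1 of 7) in running animals. Ngfr passed narrowly, at −0.48 ± 0.23 on the log2 scale (unadjusted p = 0.0492, adjusted p = 0.284; permutation within genotype, unadjusted p = 0.0535), and kept this call under 6 of the 13 processing alternatives. Of all 17317 genes tested 17.5% passed the same threshold, 9.61% higher and 7.88% lower. After Benjamini-Hochberg adjustment over all genes only Bdnf stayed under 0.05, as did 0.797% of the genes. In p16 KO RUN against p16 KO CTL (Set A) 3 of 7 passed (Bdnf and Ntrk3 higher, Ngfr lower, against a background of 18.5% of all genes, 10.7% higher and 7.74% lower), and in p16 WT RUN against p16 WT CTL (Set C) 1 of 7, Bdnf, which was higher (background 4.81%, 2.69% higher). In p16 KO RUN against p16 WT CTL (Set D) 2 of 7 passed, Bdnf higher and Ntf3 lower (background 8.63%, 4.97% higher and 3.66% lower).

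The next comparisons were between the genotypes. In p16 KO CTL against p16 WT CTL (Set B) 1 of 7 passed, Ngfr, higher in p16 KO CTL (background 6.69%, 3.15% higher). In p16 KO RUN against p16 WT RUN (Set E) 0 of 7 passed the unadjusted threshold of limma, with a background of 3.87%. The interaction of genotype and running passed for 1 of 7, Ngfr, with a negative value (background 5.48%, 2.54% negative). In the 5 pairwise sets and the interaction no member had an adjusted p under 0.05 with limma. Such p-values were reached by 0.0173% of genes in Set A, 0.00577% in Set E and none in the other sets or the interaction. The groups did not overlap for 3 of 7 genes in Set A (background 10%), for 1 of 7 in Set C (3.34%) and for 1 of 7 in Set D (5.56%), and overlapped for all 7 in Set B (2.81%) and Set E (2.49%). Sets A, B and D share libraries with one another, as do B, C and D. Set E shares p16 KO RUN with A and D and p16 WT RUN with C, so the counts of the 5 sets are not independent.

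**Figure D2:**
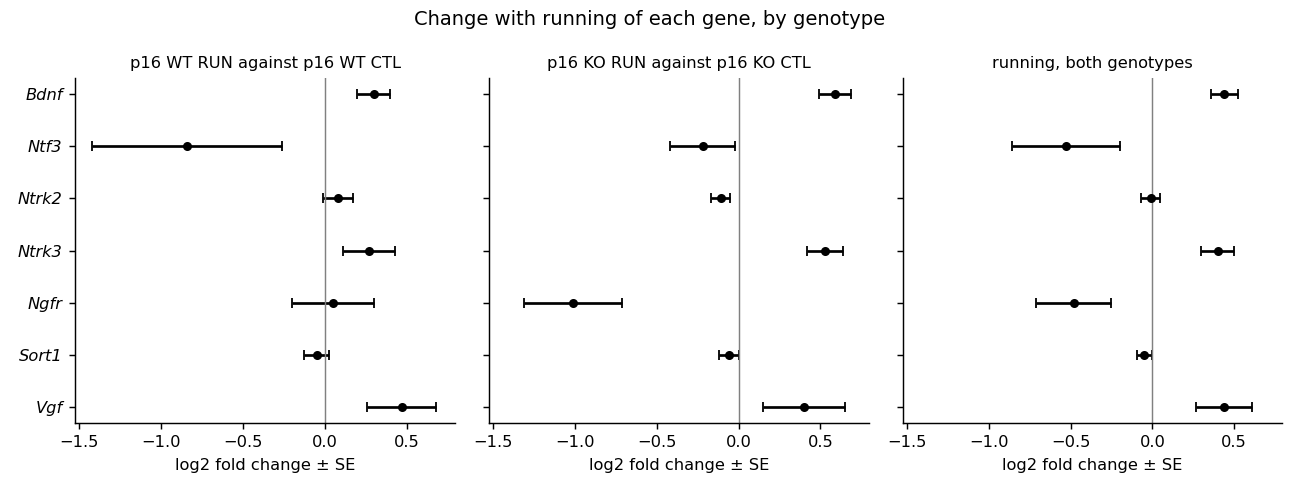
Log2 fold change with running ± SE of each gene in p16 WT, in p16 KO and over both genotypes with genotype as a term. Bdnf, Ntrk3 and Vgf lie to the right of 0 in all 3 panels, Sort1 and Ntrk2 lie near 0, and the wide interval of Ntf3 in p16 WT contains 1 library at 4.09 TPM.

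Bdnf, which encodes brain-derived neurotrophic factor, was higher in every running library than in any sedentary one. It was at 53.3, 50.6, 57.4 and 42.8 TPM in the p16 WT CTL libraries (replicates 1 to 4) and at 42.3, 41.4, 48.5 and 46.4 TPM in p16 KO CTL (replicates 5 to 8). In p16 WT RUN (replicates 9 to 12) it was at 60.4, 70.4, 61.3 and 60.6 TPM. The p16 KO RUN libraries (replicates 13 to 16) held 59.9, 76.6, 71.9 and 73.1 TPM. The 8 running libraries, at 59.9 to 76.6 TPM, thus all stood above the 8 sedentary ones, at 41.4 to 57.4 TPM. How many of all genes separate in this way is not given here.

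Over both genotypes the log2 fold change of Bdnf with running was 0.44 ± 0.081 (SE), a 1.36-fold difference (limma adjusted p = 0.0188, rank 44 of the genes tested; permutation within genotype p = 0.000408). In p16 KO the group means were 70.4 ± 7.26 and 44.7 ± 3.38 TPM, a log2 fold change of 0.59 ± 0.10 (unadjusted p = 0.00024, adjusted p = 0.0984). In p16 WT they were 63.2 ± 4.84 and 51.0 ± 6.13 TPM, a log2 fold change of 0.30 ± 0.10 (unadjusted p = 0.0163, adjusted p = 0.985). The exact permutation test gave unadjusted p = 0.0286 in both, the smallest that 4 against 4 libraries allow. The difference between the genotypes in this running effect was 0.29 ± 0.15 on the log2 scale and missed the threshold (interaction, unadjusted p = 0.0755). It passed with TPM as deposited at 0.34 (unadjusted p = 0.023), without the 2 libraries high in CA1 markers at 0.36 (unadjusted p = 0.0417) and in 4 of 16 fits that left out 1 library (p16 WT CTL replicate 4, p16 KO CTL replicate 7, p16 WT RUN replicate 10 or p16 KO RUN replicate 13), at 0.35 to 0.38. Without the libraries high in CA1 markers Set E of Bdnf was 0.22 (unadjusted p = 0.0348) against 0.16 with all (unadjusted p = 0.113), and without p16 KO RUN replicate 13 it was 0.24 (unadjusted p = 0.0125). Sedentary p16 KO and p16 WT overlapped (log2 fold change −0.12 ± 0.11, adjusted p = 0.667; without p16 WT CTL replicate 4, −0.22, unadjusted p = 0.0408). In bulk tissue, more RNA of a gene per cell and more cells that express it cannot be told apart.

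The running effect of Bdnf over both genotypes passed the unadjusted threshold in all 16 fits that left out 1 library, at 0.41 to 0.48, and the Set A effect in all 8, at 0.53 to 0.67. The adjusted call over both genotypes was lost without p16 KO RUN replicate 14 (limma adjusted p = 0.0504), with the nuclear RNA score in the model (0.0719), without the 2 libraries high in CA1 markers (0.0956) and without the 3 low in nuclear RNA (0.133), with values of 0.41 to 0.46. Without the 3 libraries low in nuclear RNA Bdnf was at 0.64 in Set A and at 0.32 in Set C. The Set C effect rested more on single choices: by the coverage column in place of TPM its unadjusted p was 0.051, and without p16 WT RUN replicate 10 it was 0.24 (unadjusted p = 0.0484).

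**Figure D3:**
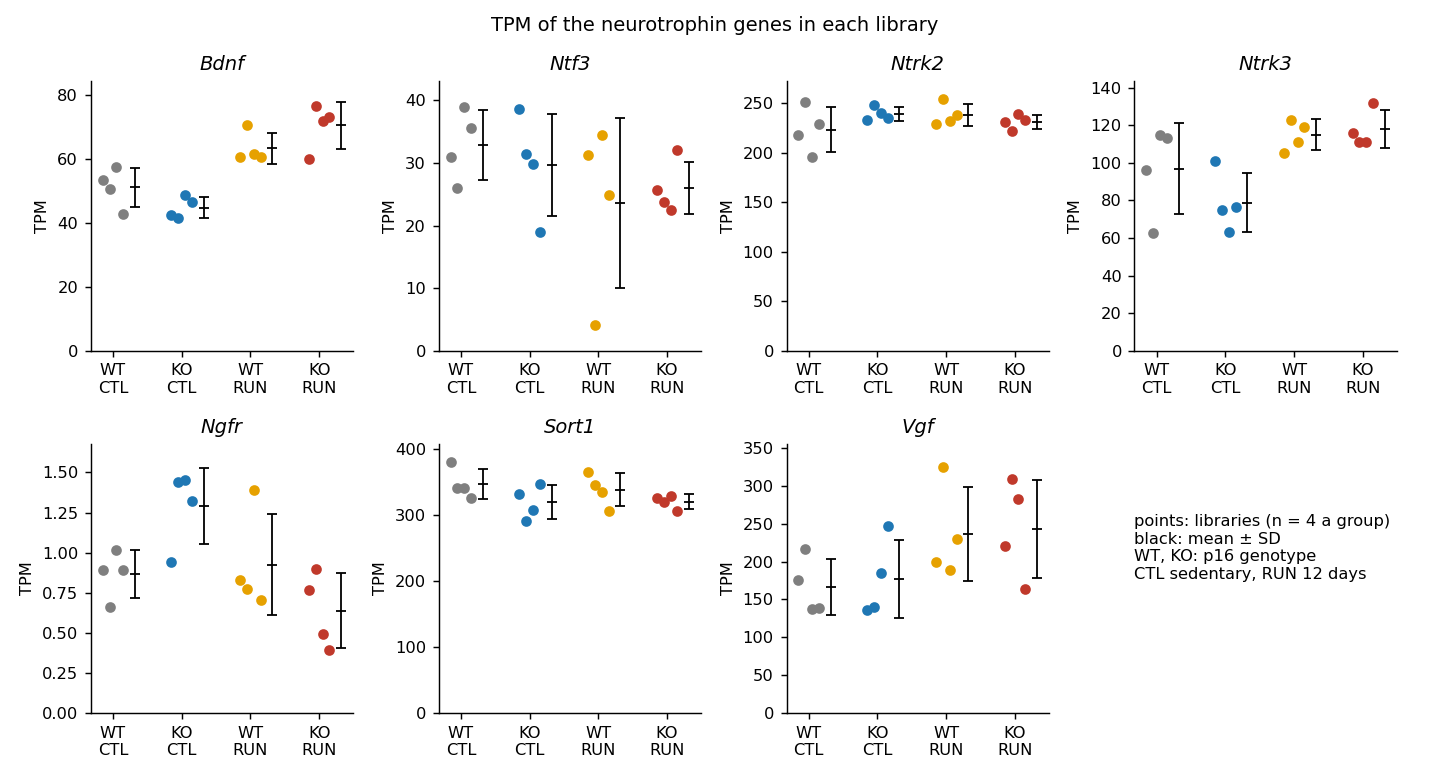
TPM of each gene in every library (points) with mean ± SD of each group of 4 (black); each vertical axis starts at 0. All running libraries lie above all sedentary ones for Bdnf, p16 KO RUN lies below p16 KO CTL for Ngfr, and 1 p16 WT RUN library holds 4.09 TPM of Ntf3.

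Ntf3, which encodes neurotrophin-3, showed no difference with running that passed the test within a genotype. It was at 30.9, 26.0, 38.9 and 35.6 TPM in p16 WT CTL, at 38.6, 31.4, 29.8 and 18.9 TPM in p16 KO CTL, at 31.2, 4.09, 34.4 and 24.9 TPM in p16 WT RUN, and at 25.7, 23.7, 22.5 and 32 TPM in p16 KO RUN. The groups overlapped in each comparison, and 2 libraries stood low: p16 WT RUN replicate 10 at 4.09 TPM and p16 KO CTL replicate 8 at 18.9 TPM, the 2 with the highest CA1 markers. Over the 16 libraries Ntf3 correlated with the CA1 marker list at r = −0.55, and the part of the dissection in these values was not tested. The log2 fold change of Ntf3 in Set C was −0.84 ± 0.58 (adjusted p = 0.985) with replicate 10 and −0.14 without it. In Set A it was −0.22 ± 0.20 (unadjusted p = 0.289, adjusted p = 0.548) and, without p16 KO CTL replicate 8, −0.43 with an unadjusted p of 0.00718. Over both genotypes it was −0.53 ± 0.33 (unadjusted p = 0.128) and, without both libraries, −0.29 (unadjusted p = 0.013, adjusted p = 0.227). In Set D, which uses neither library, Ntf3 was lower in p16 KO RUN, at 26.0 ± 4.22 against 32.9 ± 5.60 TPM (log2 fold change −0.34 ± 0.13, unadjusted p = 0.0263, adjusted p = 0.494, exact permutation p = 0.0857), a call kept in 3 of 8 fits that left out 1 library and lost with all 16 libraries in one fit (unadjusted p = 0.483).

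The TPM ratio of Bdnf to Ntf3 was 1.20 to 1.95 in p16 WT CTL and 1.10 to 2.46 in p16 KO CTL, and 2.29 to 3.24 in p16 KO RUN. In p16 WT RUN it was 1.78 to 17.2, with the highest value in replicate 10. These ratios follow from the TPM values already given and depend on the measure of level.

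Ntrk2, which encodes TrkB, varied little between libraries and missed the threshold in every comparison as fitted without weights on all its libraries. It was at 218, 251, 196 and 229 TPM in p16 WT CTL, at 233, 248, 240 and 235 TPM in p16 KO CTL, at 229, 254, 232 and 238 TPM in p16 WT RUN and at 231, 222, 239 and 233 TPM in p16 KO RUN. All groups overlapped. The running effect was −0.01 ± 0.0593 on the log2 scale (adjusted p = 0.924), −0.11 ± 0.0576 in p16 KO (unadjusted p = 0.0835) and 0.08 ± 0.0928 in p16 WT (unadjusted p = 0.385). Without the 3 libraries low in nuclear RNA it passed narrowly in Set C at 0.17 (unadjusted p = 0.0467) and in the interaction at −0.20 (unadjusted p = 0.0485). With array weights it passed in Set A at −0.13 (unadjusted p = 0.0313), in Set B at 0.22 (unadjusted p = 0.0288) and in the interaction at −0.24 (unadjusted p = 0.022). Without p16 WT CTL replicate 2 Set B was 0.24 (unadjusted p = 0.0158) and the interaction −0.28 (unadjusted p = 0.00825), and without p16 KO CTL replicate 5 Set A was −0.15 (unadjusted p = 0.0204). Ntrk2 makes a full-length and truncated receptors without the kinase, and the gene-level tables do not separate them. Its level followed the astrocyte marker list over the 16 libraries at r = 0.66, the granule neuron list at r = −0.62 and the nuclear RNA list at r = −0.64, given as descriptions. Within the 8 sedentary libraries its r with the nuclear RNA list was −0.79 and within the 8 running ones 0.66, of opposite sign.

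Ntrk3, which encodes TrkC, was higher with running in p16 KO. It was at 96.0, 62.9, 115 and 113 TPM in p16 WT CTL and at 101, 74.7, 63.4 and 76.7 TPM in p16 KO CTL, against 105, 123, 111 and 119 TPM in p16 WT RUN and 116, 111, 111 and 132 TPM in p16 KO RUN. The p16 KO RUN libraries all lay above the p16 KO CTL ones, while p16 WT RUN and p16 WT CTL overlapped. The sedentary libraries spread widely and those with the lowest values included the 3 low in nuclear RNA. The log2 fold change was 0.53 ± 0.11 in Set A (118 ± 9.98 against 78.9 ± 15.7 TPM, unadjusted p = 0.000753, adjusted p = 0.124, exact permutation p = 0.0286). In Set C it was 0.27 ± 0.16 (unadjusted p = 0.124; with the nuclear RNA score in the model 0.13, unadjusted p = 0.0393), and the interaction of 0.26 ± 0.20 missed the threshold (unadjusted p = 0.217). These values turned on p16 WT CTL replicate 2, at 62.9 TPM the lowest library. Without it Set C was 0.10 (unadjusted p = 0.287), the interaction 0.43 (unadjusted p = 0.0102) and Set B −0.39 (unadjusted p = 0.0137), against −0.22 in Set B with all libraries (unadjusted p = 0.251). Array weights, which count libraries by their fit, gave 0.40 in the interaction (unadjusted p = 0.0234) and −0.33 in Set B (unadjusted p = 0.048). In Set D, at 0.31 (unadjusted p = 0.0761), Ntrk3 passed without p16 WT CTL replicate 3 at 0.40 (unadjusted p = 0.037) or replicate 4 at 0.39 (unadjusted p = 0.0481), and was at 0.14 without replicate 2 (unadjusted p = 0.101). It also passed there with all 16 libraries in one fit at 0.31 (unadjusted p = 0.0464) and with the nuclear RNA score in the model at 0.16 (unadjusted p = 0.0416). Over both genotypes it was 0.40 ± 0.10 (unadjusted p = 0.00146, adjusted p = 0.0838).

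Ntrk3 moved with the nuclear RNA list, at r = 0.78 over the 16 libraries, and with Malat1 at r = 0.87. Within the 8 sedentary libraries its r with the nuclear RNA list was 0.76 and within the 8 running ones 0.61. Over the 16 libraries Ntrk3 also went with the granule neuron list at r = 0.63 and with the astrocyte list at r = −0.58. The part of cell composition in its values was not tested. Malat1 itself was at 619 ± 13.2 TPM in p16 KO RUN and 251 ± 186 TPM in p16 KO CTL. With a nuclear RNA score in the model the Set A difference of Ntrk3 was 0.40 (unadjusted p = 0.00625) and the running effect 0.25 (unadjusted p = 0.0102), and without the 3 libraries low in nuclear RNA these were 0.40 (unadjusted p = 0.00819) and 0.23 (unadjusted p = 0.0133), against 0.53 and 0.40 with all libraries. The difference in p16 KO thus kept its sign and threshold without these libraries, and the running effect over both genotypes was smaller. That Set A fit held only replicates 5 and 8 of p16 KO CTL, and replicate 8 was high in CA1 markers. The difference in p16 KO and the running effect also passed in each fit that left out 1 library. They lay at 0.45 to 0.63 in Set A and at 0.33 to 0.45 over both genotypes.

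**Figure D4:**
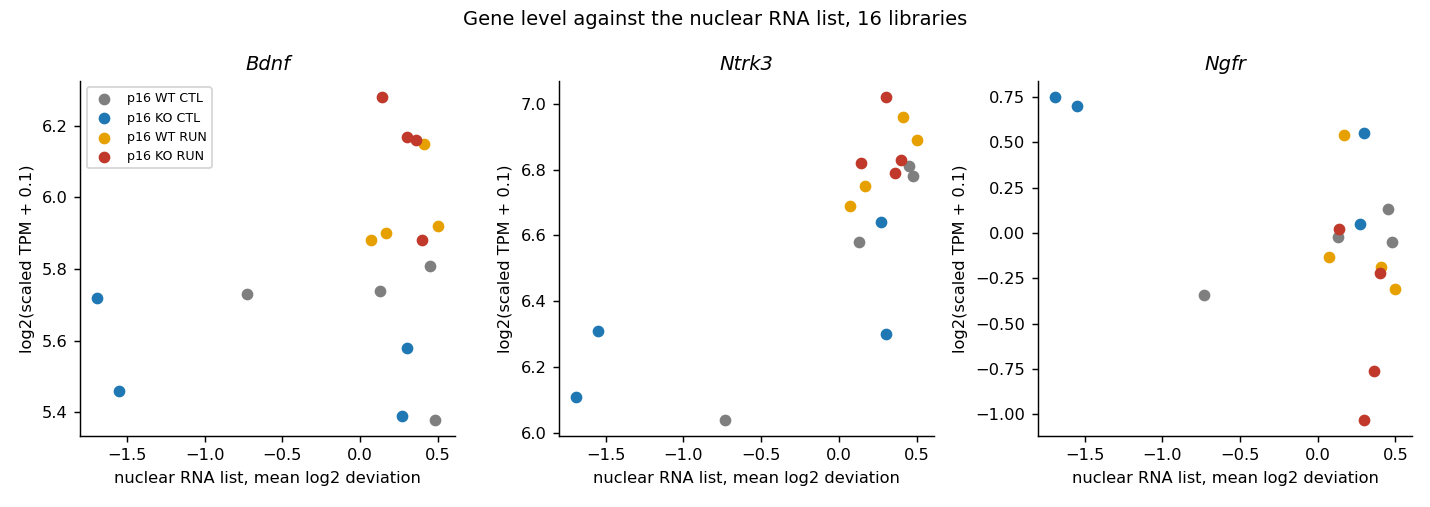
Log2 level of Bdnf, Ntrk3 and Ngfr against the mean log2 deviation of the 8-gene nuclear RNA list in the 16 libraries, coloured by group. The 3 libraries at −0.73 to −1.69 are sedentary, with Ntrk3 among its lowest values there and Ngfr at its highest in the 2 that are p16 KO CTL. Bdnf is higher in all running than in all sedentary libraries. The running libraries lie at 0.07 to 0.5, so none matches those 3 in nuclear RNA.

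Ngfr, which encodes the p75 neurotrophin receptor, was near 1 TPM throughout, with a mean coverage of 1.00 to 7.77 per base. It was at 0.890, 0.660, 1.02 and 0.890 TPM in p16 WT CTL, at 0.945, 1.44, 1.45 and 1.32 TPM in p16 KO CTL, at 0.833, 0.773, 1.39 and 0.707 TPM in p16 WT RUN and at 0.770, 0.900, 0.494 and 0.397 TPM in p16 KO RUN. All p16 KO RUN libraries lay below all p16 KO CTL ones, and in p16 WT the groups overlapped. The log2 fold change was −1.01 ± 0.30 in Set A (0.640 ± 0.234 against 1.29 ± 0.237 TPM, unadjusted p = 0.0078, adjusted p = 0.186, exact permutation p = 0.0286) and 0.05 ± 0.25 in Set C (unadjusted p = 0.859). In Set B it was 0.58 ± 0.23 (unadjusted p = 0.0338, adjusted p = 0.625, exact permutation p = 0.0571). The interaction was −1.05 ± 0.38 (unadjusted p = 0.0141, adjusted p = 0.797).

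The Ngfr calls depended on the libraries and terms in the model. Without the 3 libraries low in nuclear RNA the running value was −0.37 (unadjusted p = 0.144), the Set A value −0.79 (unadjusted p = 0.0759), the Set B value 0.28 (unadjusted p = 0.35) and the interaction −0.75 (unadjusted p = 0.122). With the nuclear RNA score in the model the running value was −0.31 (unadjusted p = 0.211), Set A −0.78 (unadjusted p = 0.0504), Set B 0.50 (unadjusted p = 0.0701) and the interaction −0.94 (unadjusted p = 0.031). Without the 2 libraries high in CA1 markers Set B was 0.57 (unadjusted p = 0.0623) and running −0.45 (unadjusted p = 0.102). The Set A call held in all 8 fits that left out 1 library, at −1.18 to −0.83, while the Set B call held in 2 of 8 and the running call in 5 of 16. At this level a library's count of reads is small and its counting error is not known from the tables. Schwann cell and peripheral glia markers, another possible source of Ngfr, summed to 38.3 to 57.1 TPM over all libraries, with 50.4 to 57.1 TPM in p16 KO CTL and 43.4 to 52.4 TPM in p16 KO RUN. Of these markers 2 of 4 tested were lower in Set A (7.74% of all genes were lower), with a list median of 0.08, and 2 were higher in Set B (3.15% of all genes), with a list median of −0.06. Of 7 oligodendrocyte markers 5 were lower and 0 higher in Set A (median −0.41) and 1 was higher in Set B (median 0.41), and they summed to 1150 to 1500 TPM in p16 KO RUN and 1480 to 2450 TPM in p16 KO CTL. In Set A 3 of 8 astrocyte markers and 2 of 6 microglia markers were also lower. In Set B 2 of 8 astrocyte, 2 of 6 microglia and 2 of 5 oligodendrocyte precursor markers were higher and 0 lower. The shares over all genes in these sets are those given for the Schwann cell list. The part of these cells in the result was not tested.

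Sort1, which encodes sortilin, had the highest TPM of the 7 genes and missed the threshold in every comparison, except that Set D passed under quantile normalization (unadjusted p = 0.0444) and, at −0.16, without p16 WT CTL replicate 4 (unadjusted p = 0.0358). It was at 381, 341, 342 and 327 TPM in p16 WT CTL, at 333, 291, 308 and 348 TPM in p16 KO CTL, at 366, 346, 336 and 306 TPM in p16 WT RUN and at 327, 320, 330 and 306 TPM in p16 KO RUN, and all groups overlapped. Its log2 fold changes lay between −0.12 and −0.05 in the 5 pairwise sets, each with an SE of 0.0574 to 0.0762. The running effect was −0.05 ± 0.0462 (adjusted p = 0.549). Its level went with the activity-induced gene list at r = 0.53 over the 16 libraries, as a description.

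Vgf, which encodes a neuropeptide precursor of dense core vesicles and is itself known to be induced by neurotrophins, was higher with running over both genotypes at the unadjusted threshold. It was at 176, 216, 138 and 139 TPM in p16 WT CTL and at 136, 140, 185 and 247 TPM in p16 KO CTL, against 200, 325, 189 and 230 TPM in p16 WT RUN and 220, 308, 282 and 164 TPM in p16 KO RUN. Of the 8 running libraries 3 exceeded every sedentary one, and the groups overlapped in each set. The log2 fold change with running was 0.44 ± 0.17, a 1.35-fold difference (unadjusted p = 0.0218, adjusted p = 0.211, permutation within genotype p = 0.0437). It was 0.40 ± 0.25 in p16 KO (unadjusted p = 0.143) and 0.47 ± 0.21 in p16 WT (unadjusted p = 0.0515), with an interaction of −0.08 ± 0.35 (unadjusted p = 0.827). Vgf was highest in p16 WT RUN replicate 10 and, among sedentary libraries, in p16 KO CTL replicate 8, the 2 libraries high in CA1 markers. Without p16 WT RUN replicate 10 the running effect was 0.35 (unadjusted p = 0.0502) and Set C was 0.30 (unadjusted p = 0.139), and without p16 KO CTL replicate 8 Set A was 0.57 (unadjusted p = 0.0416). Set A also passed without p16 KO RUN replicate 16, at 0.58 (unadjusted p = 0.0341), and Set C without p16 WT RUN replicate 9 or 11, at 0.55 and 0.58. Without both libraries the running effect was 0.43 (unadjusted p = 0.017). Without the 3 libraries low in nuclear RNA Set C was 0.63 (unadjusted p = 0.0129) and Set D 0.67 (unadjusted p = 0.0165), against 0.52 ± 0.23 in Set D with all its libraries (unadjusted p = 0.0515), and 0.70 in Set D without p16 KO RUN replicate 16 (unadjusted p = 0.00871).

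Of the rest of the neurotrophin family, Ntf5, which encodes the other TrkB ligand NT-4, was under 1 TPM in every library. Its mean was 0.582 ± 0.265 TPM in sedentary and 0.351 ± 0.0972 TPM in running p16 WT animals, and 0.501 ± 0.129 TPM in sedentary and 0.843 ± 0.108 TPM in running p16 KO animals. The p16 KO RUN libraries did not overlap those of p16 KO CTL or p16 WT RUN, with log2 fold changes of 0.61 ± 0.24 in Set A (unadjusted p = 0.0305, adjusted p = 0.241) and 1.09 ± 0.25 in Set E (unadjusted p = 0.00196, adjusted p = 1.0). Without the libraries low in nuclear RNA the Set A value was 0.39 (unadjusted p = 0.169). Its interaction was 1.17 ± 0.40 (unadjusted p = 0.00979, adjusted p = 0.797).

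Among genes of proneurotrophin processing and sorting, those that passed for running over both genotypes were higher. Of 11 tested, 5 were higher and 0 lower over both genotypes at the unadjusted threshold, with a median log2 fold change of 0.13 against 0.0129 over all genes tested, and 2 of them at an adjusted p under 0.05. Sorl1, which encodes the sorting receptor SorLA, was at 152 ± 15.3 TPM in running p16 WT and 146 ± 6.16 TPM in running p16 KO animals, against 118 ± 14.4 in p16 WT CTL and 109 ± 13.4 in p16 KO CTL (log2 fold change 0.36 ± 0.06, limma adjusted p = 0.0145). Furin, a protease that cleaves proneurotrophins, was at 32.3 ± 2.19 and 33.3 ± 1.78 TPM in the running groups against 27.6 ± 0.705 and 26.3 ± 2.95 in the sedentary ones (0.25 ± 0.0522, limma adjusted p = 0.0396). For both genes all 8 running libraries lay above all 8 sedentary ones, a separation for which no share over all genes is given here. Sorcs3 (0.52 ± 0.15, adjusted p = 0.113), Sorcs1 (0.36 ± 0.15, adjusted p = 0.239), both sortilin-family receptors, and Pcsk7 (0.19 ± 0.0899, adjusted p = 0.281), a proprotein convertase, passed only unadjusted. Over all genes 9.61% were higher. In Set A 4 were higher and 2 lower (10.7% and 7.74% of all genes), in Set C 3 higher (2.69%) and in Set D 4 higher (4.97%), with 1 higher in Set B (3.15%) and 0 in Set E. Without the 3 libraries low in nuclear RNA 3 of the 11 were higher and 0 lower over both genotypes, with Sorl1 at 0.30 (limma adjusted p = 0.112) and Furin at 0.21 (limma adjusted p = 0.221), and in Set A 2 were higher and 1 lower. Without the 2 libraries high in CA1 markers the count over both genotypes was again 5 higher and 0 lower, with Sorl1 at 0.32 (limma adjusted p = 0.0505) and Furin at 0.24 (limma adjusted p = 0.109), so both adjusted calls were lost there as well. The shares over all genes belong to the fits on all libraries of each comparison, so the counts with libraries left out have none beside them.

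**Figure D5:**
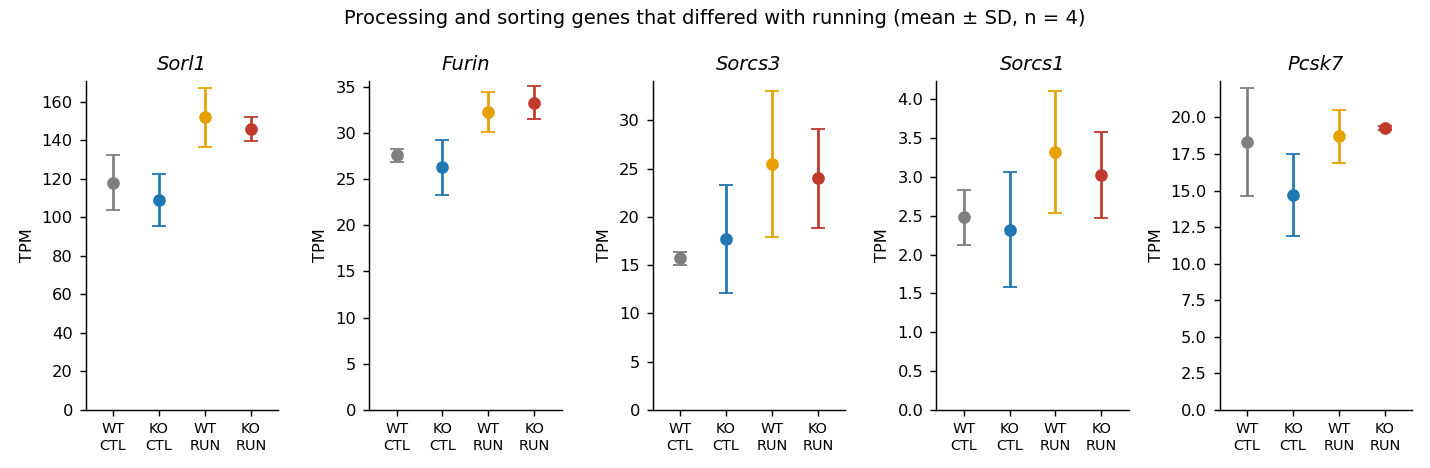
Mean ± SD of TPM in each group of 4 libraries for the 5 processing and sorting genes that passed the unadjusted threshold for running over both genotypes; vertical axes start at 0. Sorl1 and Furin are higher in both running groups, while Pcsk7 is lowest in p16 KO CTL and near 18.3 to 19.3 TPM in the other groups.

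Of 10 tested p75 partners and effectors, 2 were higher with running and 0 lower, against 9.61% and 7.88% of all genes: Lingo1 (0.32 ± 0.14) and Rtn4r (0.08 ± 0.0396), both parts of the Nogo receptor complex. Neither passed, nor did any other gene of this list for running, in the limma fit without the libraries low in nuclear RNA. Kidins220, a scaffold at Trk and p75 receptors, was lower in p16 KO CTL than in p16 WT CTL (152 ± 15.2 against 181 ± 6.96 TPM, unadjusted p = 0.0135, adjusted p = 0.625), as was Ripk2, a kinase that binds p75 (7.77 ± 1.93 against 12.2 ± 3.73 TPM, unadjusted p = 0.0357). In Set B 3.54% of all genes were lower. Kidins220 passed with the nuclear RNA score in the model at −0.17 (unadjusted p = 0.0285) and without the libraries high in CA1 markers at −0.24 (unadjusted p = 0.00554). Without the libraries low in nuclear RNA Kidins220 was at −0.12 (unadjusted p = 0.156) and Ripk2 at −0.64 (unadjusted p = 0.0277), and with the nuclear RNA score in the model Ripk2 was at −0.41 (unadjusted p = 0.109). Without the libraries high in CA1 markers Ripk2 was at −0.52 (unadjusted p = 0.0787). Nradd, a relative of p75, was lower in p16 KO RUN at 0.900 ± 0.164 TPM than in p16 WT RUN at 1.71 ± 0.462 TPM (−0.83 ± 0.23, unadjusted p = 0.00491, adjusted p = 1.0).

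Of 40 Trk adaptors and signalling genes, 8 were higher and 6 lower with running (9.61% and 7.88% of all genes), with a median of 0.01 against 0.0129 over all genes and none at an adjusted p under 0.05 with limma. In Set A 7 were higher and 2 lower, 9 of 40 against 18.5% of all genes, with Shc2 (46.8 ± 2.37 against 34.3 ± 6.02 TPM) and Plcg1 (44.3 ± 0.872 against 34.0 ± 5.90 TPM), an adaptor and the phospholipase of the Trk pathways, among those of smallest p. Without the libraries low in nuclear RNA Shc2 was at 0.23 (unadjusted p = 0.00832) against 0.39 with all Set A libraries. Plcg1 was then at 0.17 (unadjusted p = 0.0333) against 0.33. In Set B 3 were higher (3.15% of all genes), Rps6ka1 and Gab1 among them, and 0 lower. In Set D 1 was higher, Hras (0.20 ± 0.0743, unadjusted p = 0.0268), and 2 were lower, against 4.97% and 3.66% of all genes. Of the lower ones, Mapk3, the kinase ERK1, had the smaller p (311 ± 43.6 TPM in p16 KO RUN against 377 ± 37.8 TPM in p16 WT CTL, −0.29 ± 0.0938, unadjusted p = 0.0138). Without the libraries low in nuclear RNA, 3 were higher and 2 lower over both genotypes, 4 higher and 1 lower in Set A, and 1 higher (Gab1) and 1 lower (Shc2) in Set B. Without the libraries high in CA1 markers, 8 were higher and 5 lower over both genotypes, 7 and 5 in Set A, and 5 and 2 in Set B. The shares over all genes belong to the fits on all libraries of each comparison, so these counts have none beside them.

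Of 10 transcription regulators of Bdnf, 0 passed for running over both genotypes at the unadjusted threshold of limma, against 17.5% of all genes. Npas4, an activity-induced factor that binds Bdnf promoters, was higher in p16 KO RUN than in p16 KO CTL (6.52 ± 2.2 against 3.02 ± 2.42 TPM, 1.25 ± 0.49, unadjusted p = 0.0314, adjusted p = 0.242) and lower in p16 KO CTL than in p16 WT CTL at 9.29 ± 4.77 TPM (−1.64 ± 0.59, unadjusted p = 0.0214, adjusted p = 0.625). Without the libraries low in nuclear RNA these values of Npas4 were 0.48 (unadjusted p = 0.325) and −0.56 (unadjusted p = 0.403), while without the libraries high in CA1 markers they were 1.71 and −2.1, both past the threshold. Arnt2, its partner, was higher in Set C (114 ± 10.9 against 96.4 ± 7.51 TPM, unadjusted p = 0.0423). Bdnf and Npas4 correlated at r = 0.33 over the 16 libraries, as a description.

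Of the 8 granins and dense core vesicle proteins listed beside Vgf, 2 were higher with running (Chga at 0.19 ± 0.0782 and Scg2 at 0.17 ± 0.0747) and 2 lower (Scg5 at −0.25 ± 0.11 and Scg3 at −0.18 ± 0.0785), against 9.61% and 7.88% of all genes, with none at an adjusted p under 0.05 with limma. Without the libraries low in nuclear RNA, and with the nuclear RNA score in the model, 2 of the 8 were higher and 0 lower, and without the libraries high in CA1 markers 0 were higher and 1 lower. The shares over all genes belong to the fit on all libraries without this score, so these 3 counts have none beside them. Of 15 activity-induced genes 4 were higher and 1 lower (9.61% and 7.88% of all genes), 2 of them at an adjusted p under 0.05. Nptx2, a synaptic pentraxin, had means of 38.5 ± 14.9 and 47.7 ± 10.0 TPM in p16 WT RUN and p16 KO RUN against 15.7 ± 3.82 and 17.7 ± 2.73 TPM in the sedentary groups (1.29 ± 0.17, limma adjusted p = 0.00476). Inhba, an activin subunit, had 16.6 ± 8.06 and 18.8 ± 3.85 against 5.51 ± 1.29 and 6.18 ± 0.706 TPM (1.48 ± 0.20, limma adjusted p = 0.00476). Egr3 (0.29 ± 0.0662, adjusted p = 0.0522) and Homer1 (0.26 ± 0.10, adjusted p = 0.216) were higher and Dusp1 lower (−0.43 ± 0.15, adjusted p = 0.175). Without the libraries low in nuclear RNA Nptx2 was at 1.33 and Inhba at 1.56 on this scale, each with a limma adjusted p of 0.0598. Bdnf shared with Nptx2 and Inhba, as with Sorl1 and Furin, the separation of all 8 running from all 8 sedentary libraries. The share of all genes with this separation is not given here.

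The genes most like each member across the 16 libraries were taken by Pearson correlation from the 14438 genes whose mean reached 1 TPM, as a description over libraries that share groups and depth. Those nearest to Bdnf were Lrrc55 (r = 0.92), Adgrf4 (0.92) and Slc35f3 (0.90), and those nearest to Vgf were Ap2b1 (0.95), Pigq (0.94) and Syt12 (0.94). Those nearest to Ntf3 were Lhx9 (0.93), Smpdl3b (0.93) and Gpr155 (0.91). The likeness to Ntf3 includes p16 WT RUN replicate 10, in which Lhx9 stood at 10.7 TPM against 20.0 to 24.3 TPM in the other p16 WT RUN libraries and Smpdl3b at 1.99 against 4.93 to 5.72 TPM. Arid1a and Plekhg5 followed Ntrk3 at r = 0.98 each, and Acot2 (0.94), Fgfr3 (0.93) and 2310022B05Rik (0.92) followed Ntrk2. Ttpa, Coa4 and Snrpe followed Ngfr at 0.81 each, and Fmn1 (0.94), Cyld (0.90) and Psen2 (0.88) followed Sort1. Among the members themselves, Bdnf and Vgf correlated at r = 0.67, Bdnf and Ntrk3 at 0.53, Bdnf and Ngfr at −0.54, and Vgf and Ntf3 at −0.71.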

How the data were processed

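Total RNA of 16 pools of dentate gyri was made into libraries with an mRNA kit (Universal Plus mRNA-Seq) and sequenced. Per the study's methods, the authors demultiplexed with bcl2fastq 2.20, masked adapters with cutadapt 1.11, trimmed with ERNE, aligned to mm10 with STAR and computed abundances with StringTie. The TPM values, deposited by the authors, are StringTie abundances per gene scaled to 1000000 in each library. The FPKM values, deposited beside them, come from the same run, and the coverage values, per the file headers, are mean coverage per base. The tables used hold no read counts, so the counting error of a gene is unknown.

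TPM of entries with the same name was summed. Libraries were scaled by the median ratio to the average library of 13226 genes that reached 1 TPM in every one. Genes were kept if their mean reached 0.1 TPM (17317), and values on the scale log2(scaled TPM + 0.1) entered limma 3.58.1 (R 4.3.3, moderated variance with a trend, two-sided, Benjamini-Hochberg over all 17317 genes). Fold changes on this scale understate the change of low genes such as Ngfr, Ntf5 and Nradd. Each pairwise set used the 8 libraries of its groups, and running over both genotypes and the interaction used all 16. Two-sided exact permutation tests of single genes used the 35 distinct splits of 4 against 4, and for running over both genotypes labels were permuted within genotype. Coverage was multiplied by each library's median ratio of TPM to coverage. The study's own comparisons used DESeq2 on read counts, which were not analysed here. The fits were tested on simulated data.

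Genes named are the members, genes of the fixed lists with an unadjusted p under 0.05 in a pairwise set (at most 3 per list and set), those with such a p for running in the processing, p75, granin and activity lists (named after their values were seen), the 3 genes most correlated with each member, and Cdkn2a. A few genes that these rules name are not reported here. The members and lists were chosen with earlier results of these data known. Of the p75 list, Bex3 was not among the names, and of the marker lists Nectin3 was not. The list of 7 mitochondrial genes was not analysed here. Alternatives were other filters, a pseudocount of 1 or 0.01, no scaling, quantile normalization, FPKM, one fit of all libraries, no variance trend, array weights, the highest value per name, a covariate for nuclear RNA, and leaving out each library. Coverage in place of TPM and leaving out the libraries low in nuclear RNA or high in CA1 markers (for the lists, with their counts) were chosen after seeing the data.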

Additional observations from a re-analysis of the deposited data

Results flagged for a closer look

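Bdnf in p16 WT RUN replicate 10, at 70.4 TPM, stood apart from the other p16 WT RUN libraries, at 60.4 to 61.3 TPM, by Dixon's criterion for 4 values. It was the only one of 28 groups tested that passed, and chance flags about 1 in 20. The same library was lowest in Ntf3, at 4.09 TPM, highest in Vgf, at 325 TPM, and the highest of the running libraries in CA1 markers. Its part in these values was not tested.

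The effect of running on Ngfr differed between the genotypes at the unadjusted threshold, with an interaction of −1.05 on the log2 scale (unadjusted p = 0.0141, limma adjusted p = 0.797). Ngfr was lower in 4 of 4 p16 KO RUN libraries than in any p16 KO CTL library, and the p16 WT groups overlapped. The interaction was −0.75 (unadjusted p = 0.122) without the 3 libraries low in nuclear RNA.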

How the results depend on the processing

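No paired analysis was possible because the groups hold different mice and no label pairs their libraries. Of the single-gene values under the alternatives, 1066 kept their sign and their side of the threshold, 53 newly passed it, 38 no longer passed and 47 changed sign. Bdnf kept its sign and passed the unadjusted threshold in every fit of Set A, Set D and running over both genotypes, and in Set C in all but the coverage fit.

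The number of members past the unadjusted threshold moved as follows. In Set A it was 3, with 5 without the libraries high in CA1 markers, 4 with array weights and 2 under the filter at a mean TPM of 1, with the nuclear RNA covariate and without the libraries low in nuclear RNA. In Set B it was 1, with 0 under the filter at a mean TPM of 1 (which leaves out Ngfr), the nuclear RNA covariate, and without the libraries low in nuclear RNA or high in CA1 markers, and 3 with array weights. In Set C it was 1, with 2 for TPM as deposited, quantile normalization and array weights, 3 with the nuclear RNA covariate and without the libraries low in nuclear RNA, and 0 by coverage. In Set D it was 2, with 4 under quantile normalization and the nuclear RNA covariate, and 3 under the filter at 1, TPM as deposited, FPKM, array weights and without the libraries low in nuclear RNA. In Set E it was 0, with 1 without the libraries high in CA1 markers. For running over both genotypes it was 4, with 3 under the filter at 1, no filter, a pseudocount of 0.01, TPM as deposited, array weights, the nuclear RNA covariate and without the libraries low in nuclear RNA. The interaction gave 1, with 0 under the filter at 1, 2 for TPM as deposited and without the libraries high in CA1 markers, and 3 with array weights. Leaving out each library gave 3 to 5 in Set A, 0 to 2 in Set B, 1 to 3 in Set C, 1 to 3 in Set D, 0 to 1 in Set E, 2 to 4 for running and 1 to 3 for the interaction. The cause was not tested, except that the filter at 1 removes Ngfr. No share over all genes stands beside these counts under the alternatives.

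None of the values that changed sign was called. Sort1 became 0.01 (TPM as deposited) and 0.00447 (quantile) in Set A, 0.00352 in Set B without the libraries low in nuclear RNA, and in the interaction 0.04 (as deposited), 0.03 (quantile), 0.01 (array weights) and 0.05 (without the CA1-high libraries). Ntrk2 became 0.03, 0.02, 0.01, 0.06 and 0.08 for running (as deposited, quantile, array weights, nuclear covariate and without the libraries low in nuclear RNA). Ngfr in Set C became −0.00456 (quantile) and −0.04 (without the libraries low in nuclear RNA). Without the libraries high in CA1 markers Ntf3 became 0.09 in Set B, −0.2 in Set E (from 0.50) and −0.29 in the interaction (from 0.62), Vgf became −0.05 in Set B and 0.27 in the interaction, and Ntrk2 became 0.01 in Set E. Leaving out each library, Ntf3 ranged from −0.23 to 0.09 in Set B, −0.2 to 0.8 in Set E and −0.08 to 0.91 in the interaction, and Vgf from −0.05 to 0.28 in Set B, −0.09 to 0.23 in Set E and −0.23 to 0.1 in the interaction. Ngfr ranged from −0.14 to 0.14 in Set C, Ntrk2 from −0.02 to 0.13 in Set D, −0.06 to 0.01 in Set E and −0.05 to 0.02 for running, Ntrk3 from −0.01 to 0.09 in Set E, and Sort1 from −0.05 to 0.03 in the interaction. Read depth per gene is unknown, which limits Ngfr and Ntf5 most.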
